A study of Mus musculus with 4 samples.

Results

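The S100 calcium-binding proteins described here are 7 genes, S100a3, S100a4, S100a6, S100a10, S100a13, S100a16 and S100g, measured by 8 of the 22690 probe sets of a mouse expression array. A probe set was taken where the platform annotation gave it exactly 1 gene symbol and that symbol was a member. The members were selected on earlier results of these same arrays, S100a3 on its Ets2 differences and S100g on its PyMT differences, so the values below are descriptions and none of them was tested. S100a3 is also among the genes for which the study lists RT-PCR primers.

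The RNA came from cultured primary mammary fibroblasts of FVB/N female mice aged 9 weeks, with 1 array for each of 4 groups. Normal Ets2-present fibroblasts were from Ets2db/loxP mice, and normal Ets2-null fibroblasts were from Fsp-cre;Ets2db/loxP mice. PyMT Ets2-present fibroblasts were from PyMT;Ets2db/loxP mice, and PyMT Ets2-null fibroblasts were from PyMT;Fsp-cre;Ets2db/loxP mice. All 4 groups therefore carried 1 conventional knockout allele that targets the DNA-binding domain of Ets2 and 1 allele with loxP sites, and none was wild type at Ets2. The PyMT oncogene is driven by the MMTV promoter in mammary epithelium. Fsp-cre is driven by the promoter of Fibroblast Specific Protein 1, which is S100a4. Both Ets2-null arrays carry the transgene and both Ets2-present arrays lack it, so the presence of Cre and the loss of Ets2 cannot be told apart on these arrays. Each group has an n of 1, and whether that stands for 1 animal or a pool is not spelled out in the sources used here.

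S100 proteins are small calcium sensors with a pair of EF-hand motifs each. Most form dimers that open on binding calcium and then dock onto target proteins such as annexins, myosins and receptors. Most of the genes lie in a cluster next to the epidermal differentiation genes, whereas S100g lies alone on the X chromosome. S100a4 and S100a6 are abundant in mesenchymal cells, S100a3 is best known from the hair cuticle, and S100g, also called calbindin-D9k, carries calcium across intestinal and uterine epithelium under the control of vitamin D and oestrogen.

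The promoters of S100a3, S100a4 and S100g are shown because S100a3 and S100g carried the widest differences among the members and the S100a4 promoter drives the Cre transgene. Ets2 belongs to the ETS factors, which bind a GGAA core. Each window holds 250 bases before and 50 bases after an annotated transcription start, taken from RefSeq on GRCm38.p6, with every GGAA or its complement TTCC in capitals on either strand. RefSeq listed 4 starts for S100a3, and the window shown is that of the fourth, at chr3:90599964-90600263 on the plus strand. The S100a4 window is chr3:90603520-90603819 on the plus strand, and the S100g window is chrX:162964550-162964849 on the minus strand.
S100a3: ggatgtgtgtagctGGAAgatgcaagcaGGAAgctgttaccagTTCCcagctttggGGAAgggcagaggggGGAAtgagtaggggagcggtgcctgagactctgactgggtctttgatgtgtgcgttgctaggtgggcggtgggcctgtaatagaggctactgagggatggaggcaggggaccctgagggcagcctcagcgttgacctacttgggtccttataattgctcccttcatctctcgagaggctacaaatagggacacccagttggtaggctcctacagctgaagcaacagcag
S100a4: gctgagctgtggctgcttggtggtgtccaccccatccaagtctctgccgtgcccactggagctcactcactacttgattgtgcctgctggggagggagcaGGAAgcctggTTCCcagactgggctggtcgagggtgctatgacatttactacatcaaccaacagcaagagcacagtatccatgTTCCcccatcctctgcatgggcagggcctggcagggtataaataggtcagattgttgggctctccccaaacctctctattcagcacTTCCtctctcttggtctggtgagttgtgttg
S100g: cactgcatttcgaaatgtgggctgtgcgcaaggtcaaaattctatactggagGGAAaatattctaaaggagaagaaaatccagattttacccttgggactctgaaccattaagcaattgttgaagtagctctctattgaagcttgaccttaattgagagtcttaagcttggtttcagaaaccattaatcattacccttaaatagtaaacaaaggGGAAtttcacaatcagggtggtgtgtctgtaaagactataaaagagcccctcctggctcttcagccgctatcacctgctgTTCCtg
The S100a3 window held 5 core matches, the S100a4 window 4 and the S100g window 3. The other S100a3 starts had 0, 0 and 4 matches. Across all 32851 windows of this length in the table, 96.0% held at least 1 core match and the median was 3, so these counts are ordinary. The longer CCGGAA, which contains the core and was searched with its complement TTCCGG, was in none of the 10 windows of the 6 members listed there and in 14.9% of all windows. A match is only a run of letters in the window and not a measured binding site.

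The study's RT-PCR primers for S100a3, shown because one of them lies in this window, were as follows.
S100a3 left primer: gggacacccagttggtagg
S100a3 right primer: gcacacgatggcagctact
The left primer matched bases 8 to 26 after the fourth start without a mismatch, and it matched none of the windows of the other S100a3 starts. Transcripts from those starts may also contain it. The right primer was in none of the S100a3 windows.

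Levels are log2 values computed by RMA, a method that corrects background, normalizes arrays to each other and summarizes the probes of a set. A level is compared below only between arrays for the same probe set, never between probe sets. Of the 12394 genes with 1 symbol, 8687 were kept because at least 1 of their 4 levels reached 4.63, the 40th percentile of the table. All 7 members were kept, but S100a3 passed only through the Ets2-null arrays and S100g only through the normal arrays, while 5 members were at or above the filter level on all 4 arrays. The Ets2 probe set itself read 11.86 with Ets2 and 11.89 without it in normal fibroblasts, and 11.21 and 11.22 in PyMT fibroblasts. Whether it lies within the deleted exons is unknown, so it is no check of the deletion. All 12 fibroblast markers on the array, among them Col1a1, Vim and Pdgfra, were at or above the filter level on every array.

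**Figure D1:**
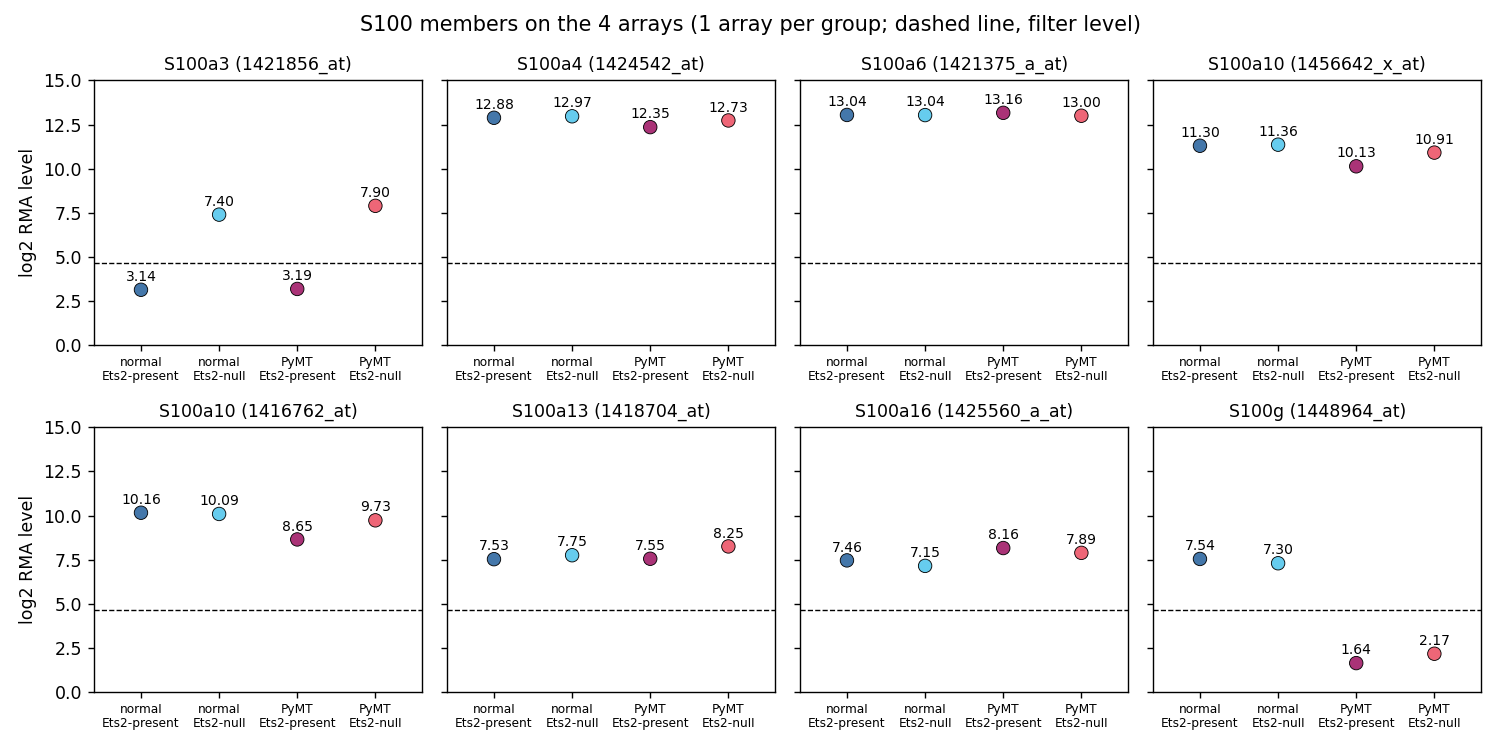
Log2 RMA level (vertical axis) of each of the 8 S100 probe sets on the 4 arrays (horizontal axis, 1 point per array), with the filter level of 4.63 as a dashed line. S100a3 lies above the line only on the Ets2-null arrays, S100g only on the normal arrays, and the other probe sets on all 4.

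Without replicates, a difference between groups is a difference between 2 arrays, with no error and no p-value. A gene was counted as apart at 2-fold or more. Between normal Ets2-null and normal Ets2-present fibroblasts, 1 of 7 members, S100a3, was at least 2-fold higher and 0 were lower, beside 3.02% higher and 2.41% lower of all 8687 kept genes. In PyMT fibroblasts the Ets2-null array had 1 member higher, again S100a3, and 0 lower, beside 7.64% and 7.77% of kept genes. Between the PyMT and normal arrays with Ets2, 0 members were higher and 2, S100a10 and S100g, were lower, beside 5.42% and 6.20%. Without Ets2, 0 were higher and 1, S100g, was lower, beside 9.69% and 11.2%. The choice of members used these contrasts, and nothing is read from the counts.

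The median difference of the 7 members was 0.06 for Ets2 in normal and 0.53 in PyMT fibroblasts, beside -0.02 and 0.02 over all kept genes. For PyMT the median of the members was 0.02 with Ets2 and -0.04 without, beside -0.01 and 0.05. For Ets2 in PyMT fibroblasts, where the medians were furthest apart, single members ran from -0.27 for S100a16 to 4.71 for S100a3. S100a3 in the Ets2 comparisons and S100g in the PyMT comparisons, which are the contrasts that chose them, were far from the other members. Nothing is read from the medians of members chosen in this way.

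**Figure D2:**
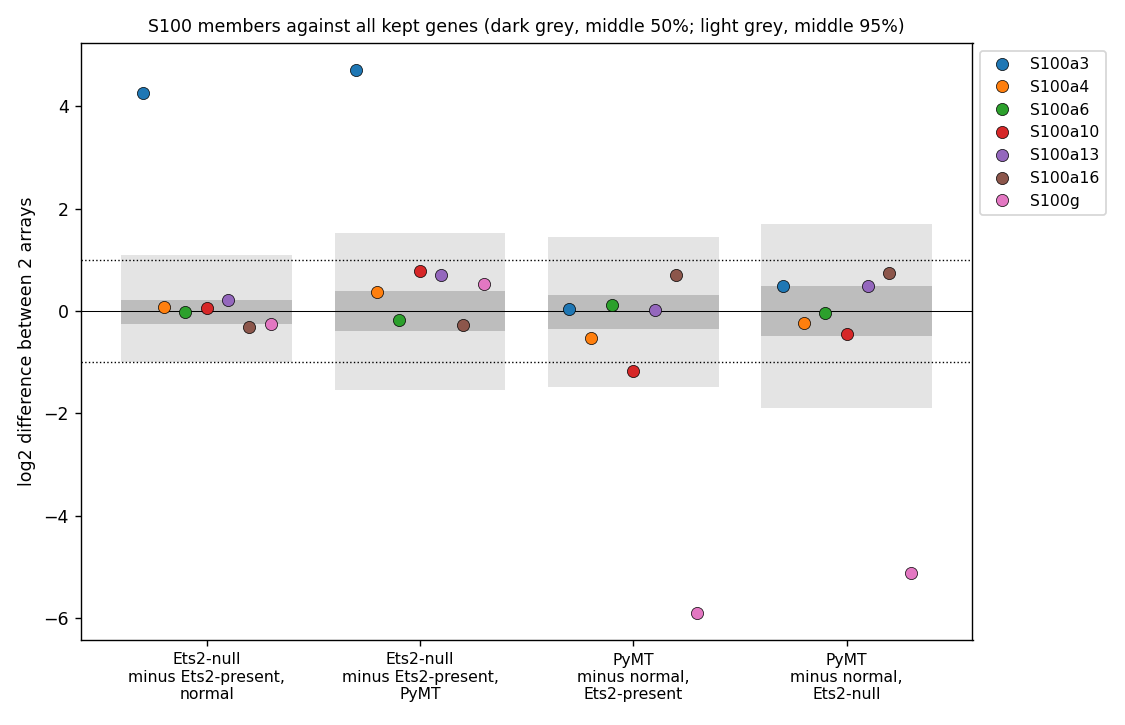
Log2 difference between 2 arrays (vertical axis) for the 7 S100 members (points) in the 4 comparisons (horizontal axis). Dark and light grey bars span the middle 50% and 95% of the 8687 kept genes, and dotted lines mark 2-fold. S100a3 at 4.26 and 4.71 and S100g at -5.90 and -5.13 lie outside the light bars.

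S100a3, a hair cuticle protein that binds zinc as well as calcium, was low on both Ets2-present arrays and clearly measured on both Ets2-null arrays. Its log2 level was 3.14 with Ets2 and 7.40 without it in normal fibroblasts, and 3.19 and 7.90 in PyMT fibroblasts. Without Ets2 it was 19.1-fold higher in normal and 26.1-fold higher in PyMT fibroblasts, at log2 differences of 4.26 and 4.71. Both Ets2-present levels were under the filter level, where a level has no firm meaning. With such levels raised to 4.63, the Ets2-null arrays were 6.80-fold and 9.61-fold higher, and S100a3 stood at rank 2 of 8687 in each comparison, after Steap4 in normal and Rspo2 in PyMT fibroblasts.

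Between the PyMT and normal arrays S100a3 was less than 2-fold apart. The PyMT array was higher by 0.05 on the log2 scale with Ets2, both levels being under the filter level, and by 0.50 without Ets2. The Ets2 difference was 0.45 larger in PyMT than in normal fibroblasts. As a measure of how far 2 readings of a gene can part, the 2 probe sets of highest mean that were kept for a gene disagreed by an SD of 0.479 in the Ets2 difference in normal and of 0.685 in PyMT fibroblasts, over 3378 genes. For the PyMT difference these SDs were 0.513 with Ets2 and 0.701 without. Both probe sets of a gene were read on the same arrays, so the SDs do not measure the spread between cultures or animals.

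Of the kept genes, 55 were under the filter level on both Ets2-present arrays and at or above it on both Ets2-null arrays. From its lower Ets2-null level to its higher Ets2-present level, S100a3 had a gap of 4.21, or of 2.77 with low levels raised to the filter level. The next widest gap was that of Hpgd, the enzyme that inactivates prostaglandins, at 1.52, or 1.10 with low levels raised. S100a3 was chosen on this contrast, so nothing is read from its place among these genes. The pattern of S100a3 over the 4 arrays was measured against every kept gene as the root mean square distance of the log2 levels, each centred on its own mean. The closest genes were Serpinb1a, an inhibitor of neutrophil proteases, at 1.01, Ppp1r3c, a glycogen-targeting phosphatase subunit, at 1.35, Serpinb6b at 1.35, Hpgd at 1.37 and Aox1, aldehyde oxidase, at 1.37. All 5 were at least 2-fold higher on the Ets2-null array in both comparisons, from 1.06 for Serpinb6b to 2.17 for Serpinb1a in normal and from 1.84 for Hpgd to 3.22 for Serpinb6b in PyMT fibroblasts. None was within 0.1 of S100a3, and these likenesses rest on 4 arrays.

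**Figure D3:**
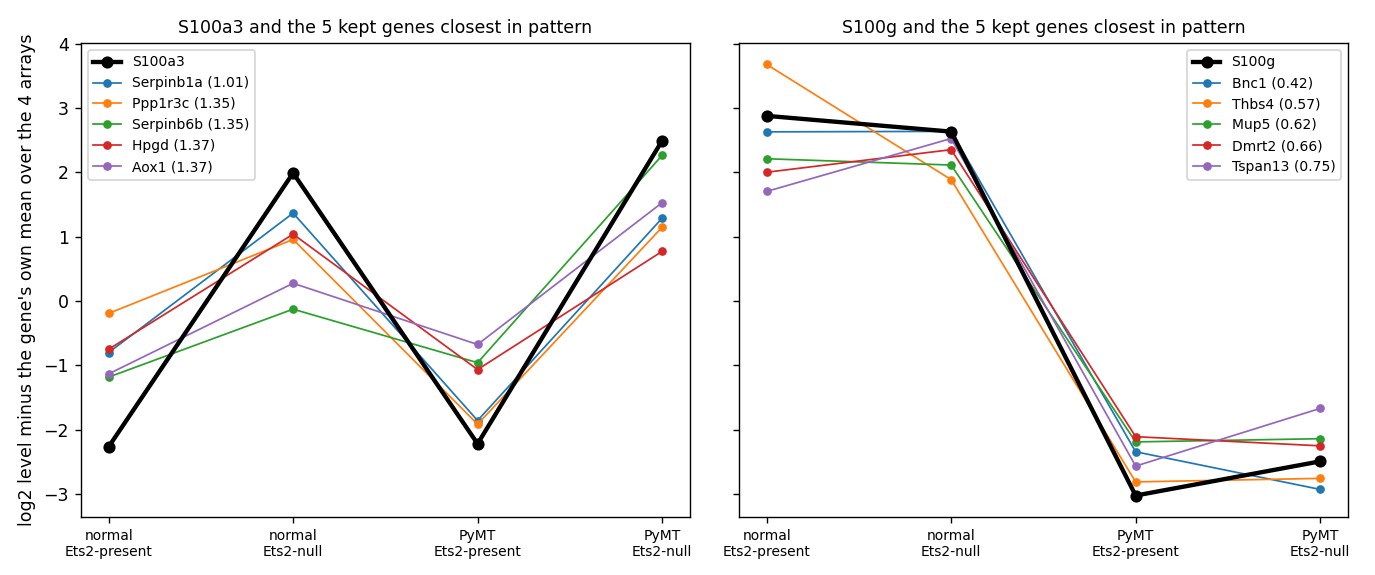
Log2 level minus the gene's own mean over the 4 arrays (vertical axis) for S100a3, S100g and the 5 kept genes closest to each, with the distance in brackets. S100a3 rises and falls with the Ets2 status of the array, with its nearest gene at 1.01, and S100g with the PyMT status, with its nearest gene at 0.42.

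The neighbours of S100a3 were read to see how far along the chromosome its difference reached. In RefSeq order on chromosome 3 the uninterrupted run of S100 genes holds 12 protein-coding genes, S100a1, S100a13, S100a14, S100a16, S100a3, S100a2, S100a4, S100a5, S100a6, S100a7a, S100a8 and S100a9. Of these, 10 were measured and 6 were kept. Of 12 protein-coding genes flanking the run, 7 were measured and 4 were kept, namely Ints3, Ilf2, Snapin and Chtop. The 9 kept neighbours of S100a3 differed between Ets2-null and Ets2-present arrays by -0.31 to 0.90 in normal and by -0.92 to 0.70 in PyMT fibroblasts. None of the 9 was 2-fold apart in any of the 4 comparisons. Of all kept genes, 5.42% were 2-fold apart for Ets2 in normal and 15.4% in PyMT fibroblasts. For PyMT the shares were 11.6% with Ets2 and 20.9% without. With 9 genes a count of 0 is not far from these shares, and nothing is read from it.

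S100a16, the nearest measured gene on one side, differed by -0.31 in normal and by -0.27 in PyMT fibroblasts. S100a4, the nearest on the other, differed by 0.09 and 0.38. S100a5, which follows S100a4, was under the filter level on all 4 arrays, with levels from 2.77 to 3.84. S100a3 was the single kept gene of the run that was apart by 2-fold in the Ets2 comparisons, which are the contrasts that chose it.

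**Figure D4:**
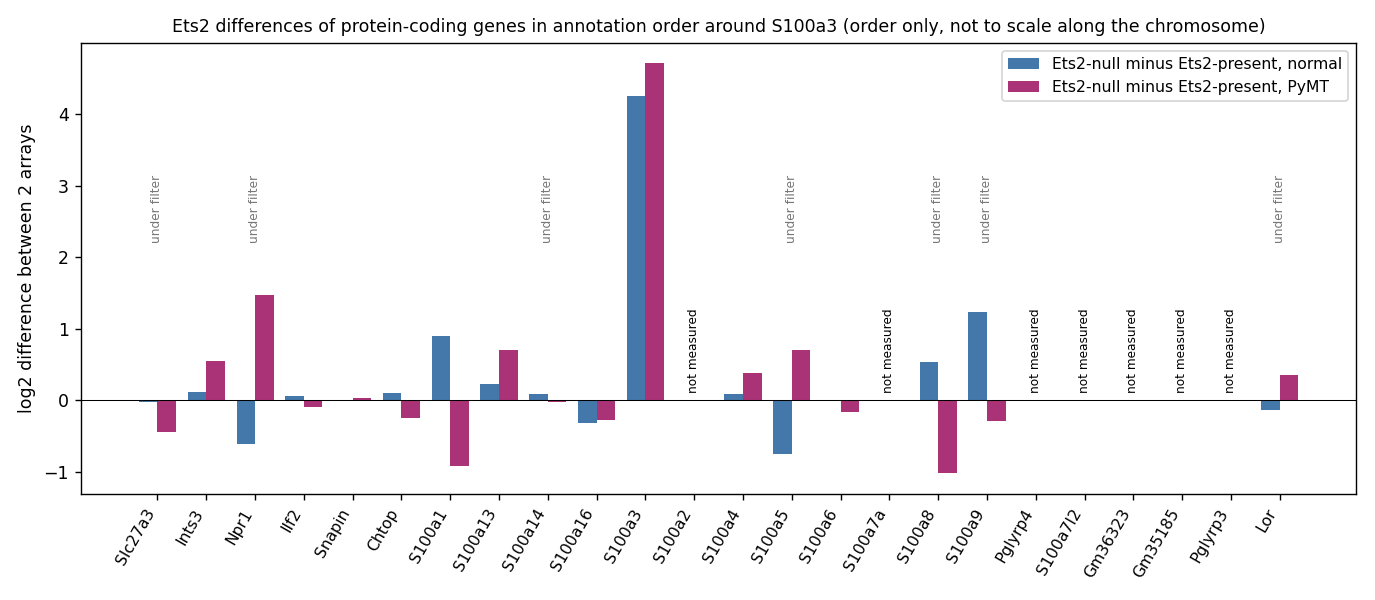
Ets2-null minus Ets2-present log2 difference (vertical axis) in normal (blue) and PyMT (purple) fibroblasts for protein-coding genes in RefSeq order around S100a3 (horizontal axis, order only). S100a3 stands at 4.26 and 4.71, and the 9 kept neighbours lie between -0.92 and 0.90. Genes marked as under the filter had no level of 4.63 or more.

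Because S100a3 belongs to hair and skin, 19 epidermal and hair genes were examined, all of which were on the array. Of these, 5 were kept, Krt1, Krt10, Krt86, Sprr1a and Tchh, and 0 were 2-fold apart in either Ets2 comparison. Their median Ets2 difference was 0.02 in normal and 0.21 in PyMT fibroblasts. Between PyMT and normal arrays, 2 were higher with Ets2, Sprr1a by 1.21 and Tchh by 2.11, and 4 were higher without Ets2, beside 5.42% and 9.69% of all kept genes, and 0 were lower. These last were Krt1 by 1.05, Krt86 by 1.34, Sprr1a by 1.88 and Tchh by 1.63. Krt1 and Krt86 passed the filter only through the PyMT Ets2-null array, and Sprr1a and Tchh only through the PyMT arrays. The filter thus favoured higher PyMT levels among the kept genes, and nothing is read from these counts. Tchh is a structural protein of the hair follicle that itself has an S100-like domain. It read 3.40 with Ets2 and 3.42 without it in normal fibroblasts, both under the filter level, and 5.51 and 5.06 in PyMT fibroblasts.

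S100g was measured on both normal arrays and lay near the bottom of the scale on both PyMT arrays. Its log2 level was 7.54 with Ets2 and 7.30 without it in normal fibroblasts, and 1.64 and 2.17 in PyMT fibroblasts. The PyMT array was 59.8-fold lower with Ets2 and 34.9-fold lower without, at log2 differences of -5.90 and -5.13. With levels under the filter raised to 4.63, the PyMT arrays were 7.52-fold and 6.35-fold lower, which put S100g at rank 20 and 56 from the lowest of 8687 differences. The Ets2 difference was -0.25 in normal and 0.53 in PyMT fibroblasts, the latter between levels that were both under the filter level.

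Of the kept genes, 128 were at or above the filter level on both normal arrays and under it on both PyMT arrays. The gap of S100g, from its lower normal to its higher PyMT level, was 5.13, and that of Bnc1 was 4.97. With low levels raised to the filter level the order turned, with Bnc1 widest at 4.91 and S100g at rank 6 with 2.67. The choice of S100g used this contrast, and nothing is read from its place. The genes closest to S100g in pattern were Bnc1, a zinc finger protein of epithelial and mesothelial cells, at 0.42, Thbs4, a thrombospondin, at 0.57, Mup5, a major urinary protein, at 0.62, Dmrt2, a DM domain factor, at 0.66 and Tspan13, a tetraspanin, at 0.75. All 5 were lower on the PyMT array, from -4.11 for Dmrt2 to -6.49 for Thbs4 with Ets2 and from -4.20 for Tspan13 to -5.57 for Bnc1 without. Thbs4 also differed by Ets2 in normal fibroblasts, at -1.79, which S100g did not share. In the RefSeq order on the X chromosome, Ctps2, which comes just before S100g, differed by -0.43 and 0.11 between PyMT and normal arrays with and without Ets2. Grpr, just after it, was under the filter level on all arrays.

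S100g responds to vitamin D in gut and to oestrogen in uterus, and 15 genes of those systems were listed, of which 13 were on the array and 6 were kept. Between normal Ets2-null and Ets2-present fibroblasts 0 were higher and 1, Pgr, was lower, at -1.02, beside 3.02% and 2.41% of all kept genes. In PyMT fibroblasts 3 were higher without Ets2, Vdr by 1.33, Trpv6 by 1.32 and Tff1 by 1.30, and 0 were lower, beside 7.64% and 7.77%. The PyMT array with Ets2 had 0 higher and 2 lower, Pgr at -1.18 and Greb1 at -2.62, beside 5.42% and 6.20%. The PyMT array without Ets2 had 3 higher, again Vdr, Trpv6 and Tff1, by 1.60, 1.32 and 1.28, and 1 lower, Greb1, at -1.66, beside 9.69% and 11.2%. Trpv6 passed the filter only through the PyMT Ets2-null array and Pgr only through the normal Ets2-present array. Tff1 passed only through these same arrays, and Greb1 only through the normal arrays. Their directions were thus partly fixed by the filter. The PyMT Ets2-null array also had the highest 25th percentile over all probe sets, at 3.66. With 6 genes kept, these counts rest on few genes. The medians of the list were -0.54 and 1.03 for Ets2 in normal and PyMT fibroblasts and -0.77 and 0.73 for PyMT with and without Ets2.

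The vitamin D receptor gene Vdr did not follow S100g. Its level was 8.97 with Ets2 and 8.38 without it in normal fibroblasts, and 8.65 and 9.99 in PyMT fibroblasts, with the highest level on an array where S100g was low. Its second probe set had the same order of arrays, at 6.87, 6.23, 6.66 and 7.88. Greb1, an oestrogen-induced gene, had its 2 higher levels on the same arrays as S100g, at 6.50 and 6.01 in normal fibroblasts with and without Ets2 against 3.88 and 4.36 in the PyMT ones. Pgr, Tff1 and Trpv6, the progesterone receptor, a trefoil peptide and an epithelial calcium channel, had levels of at most 5.62 on any array.

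S100g and Krt18, a keratin of simple epithelium, were higher on the same arrays. Krt18 read 8.05 with Ets2 and 6.72 without it in normal fibroblasts, and 4.23 and 4.49 in PyMT fibroblasts. The epithelial list as a whole did not have this order. Of its 10 genes, 3, 2, 2 and 4 were at or above the filter level on the arrays in this order, and the summed linear level was 396, 229, 306 and 342. Krt19, another keratin of simple epithelium, ran the other way, at 4.98, 4.38, 7.36 and 7.21. Markers of other cells also parted by PyMT status. The 4 adipocyte genes on the array had a summed linear level of 242, 156, 1240 and 1130 in the same order, opposite to S100g. Only 2 of them were kept, and most of each sum was Fabp4, at 7.64, 6.82, 9.96 and 9.995. The other kept gene, Pparg, read 4.84, 4.75, 7.80 and 6.37. Adipoq and Lep were under the filter level on all 4 arrays. The endothelial and fibroblast lists were mixed. Of 5 endothelial genes 2 were kept, and they ran opposite ways, Kdr at 6.12, 6.80, 3.94 and 4.35 and Tek at 3.49, 3.80, 4.30 and 5.23. All 12 fibroblast genes were kept. On the PyMT array with Ets2, Fap was 2-fold higher and Pdgfra, Dcn and Lum were lower, beside 5.42% and 6.20% of all kept genes. Without Ets2, Pdgfrb was higher and Thy1, Dcn and Lum were lower, beside 9.69% and 11.2%. The part of these cells in the S100g difference was not tested, and fewer cells of a type and less RNA per cell cannot be told apart in these bulk cultures.

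**Figure D5:**
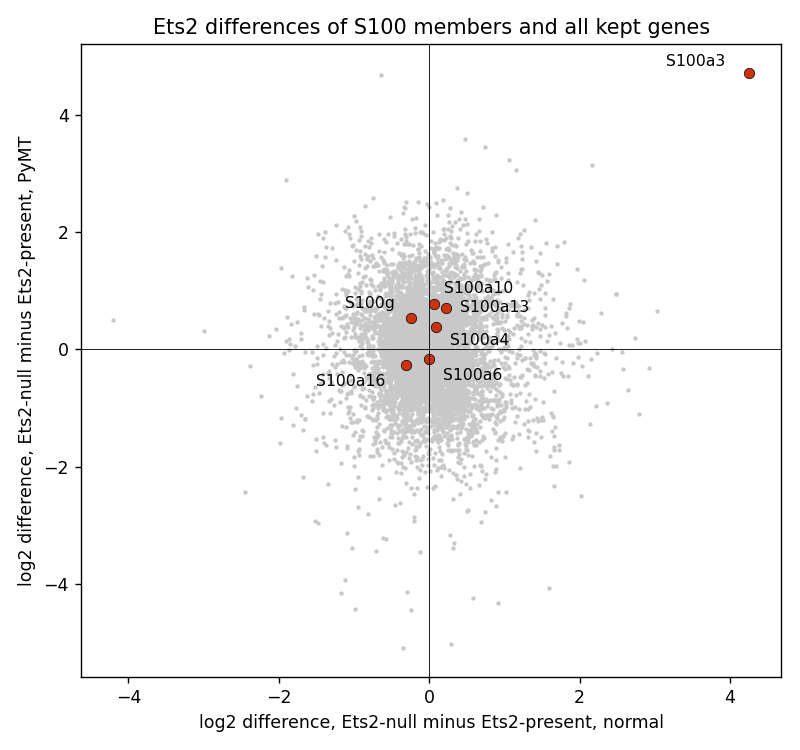
Ets2-null minus Ets2-present log2 difference in normal (horizontal axis) and PyMT (vertical axis) fibroblasts, with 1 grey point for each of the 8687 kept genes and the 7 S100 members in red. S100a3 lies at the upper right at 4.26 and 4.71, and the other 6 members lie between -0.31 and 0.78 on both axes.

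S100a4, also called Fibroblast Specific Protein 1 or metastasin, binds non-muscle myosin and is a marker of fibroblasts and of some macrophages. Its level was 12.88 with Ets2 and 12.97 without it in normal fibroblasts, and 12.35 and 12.73 in PyMT fibroblasts. The 4 levels spanned 0.61, and the lowest was on the PyMT Ets2-present array. The Ets2-null array was 1.06-fold higher in normal and 1.30-fold higher in PyMT fibroblasts, and the PyMT array was 1.44-fold lower with Ets2 and 1.18-fold lower without. S100a4, whose promoter drives Fsp-cre, was thus far above the filter level on all 4 arrays, and 80.5% of kept genes had an Ets2 difference in normal fibroblasts at least as wide. Its closest genes in pattern were Galt at 0.018, Cdkn1b at 0.019 and Ifitm3 at 0.022, and 107 genes were within 0.1, so its small pattern was a common one.

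S100a6, calcyclin, which binds the ubiquitin ligase adaptor Cacybp, was the most even member. It read 13.04 with Ets2 and 13.04 without it in normal fibroblasts, and 13.16 and 12.999 in PyMT fibroblasts, a span of 0.17. Its 4 differences lay between -0.17 and 0.12, and 401 kept genes had a pattern within 0.1 of it, the closest being Arglu1 at 0.018.

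S100a10, or p11, has lost the ability to bind calcium and forms a complex with annexin A2 that anchors membrane proteins and plasminogen at the cell surface. It was the member with 2 probe sets. The brighter, whose _x_at suffix is the maker's mark for probes that may also match other transcripts, read 11.30 with Ets2 and 11.36 without it in normal fibroblasts, and 10.13 and 10.91 in PyMT fibroblasts. The other read 10.16, 10.09, 8.65 and 9.73 in the same order. Both put the PyMT Ets2-present array lowest, the PyMT Ets2-null array next and the normal arrays close together at the top.

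The PyMT array with Ets2 was 2.24-fold lower by the brighter and 2.85-fold lower by the other probe set, at log2 differences of -1.17 and -1.51. Without Ets2 the differences were -0.45 and -0.36. In PyMT fibroblasts the Ets2-null array was higher by 0.78 and 1.08, the second of which was past 2-fold at 2.12, whereas in normal fibroblasts the differences were 0.06 and -0.07. The Ets2 difference was thus 0.72 or 1.15 larger in PyMT than in normal fibroblasts. The 2 probe sets parted by less than the SD of such disagreements in all 4 comparisons. They share a transcript and are not replicates.

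The genes closest to S100a10 in pattern were Zfp36l1, an RNA-binding factor, at 0.035, Cdc42ep5, an effector of Cdc42, at 0.047 and Mtss1, an actin-binding protein, at 0.062. Only 9 kept genes lay within 0.1. Its partners Anxa2 and Ahnak, by their brightest probe sets, were not 2-fold apart in any comparison. Anxa2, annexin A2, read 12.62 with Ets2 and 12.64 without it in normal fibroblasts, and 12.34 and 12.72 in PyMT fibroblasts, also lowest on the PyMT Ets2-present array but by 0.28 against normal. Ahnak, a giant scaffold protein held by the S100a10 and annexin complex, read 13.25, 13.20, 13.27 and 13.58 by that probe set. A dimmer Ahnak probe set, with levels from 4.42 to 6.25, was higher on the PyMT arrays by 1.39 with Ets2 and 1.41 without. S100a11, the neighbour of S100a10, was measured only by a probe set shared with its pseudogene, which read 12.75, 12.72, 12.80 and 12.87 and cannot be given to 1 gene.

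The array with the lowest S100a10 and S100a4 levels also had the highest summed level of the macrophage markers. Of 12 macrophage markers, 5, 7, 8 and 5 were at or above the filter level, in normal fibroblasts with and without Ets2 and then in PyMT fibroblasts with and without it. Their summed linear level was 528, 521, 1520 and 846. The summed level of the 12 fibroblast markers was 53300, 55600, 49000 and 60100 in the same order. Single macrophage markers, by their brightest probe sets, did not all peak on 1 array. Adgre1, Csf1r, Lyz2, Msr1, Lcp1 and C1qb were highest on the PyMT Ets2-present array. Cd68, Cd14 and Fcgr3 were highest on the normal Ets2-null array, and Ptprc, Itgam and C1qa on the PyMT Ets2-null array. The part of macrophages and fibroblasts in the S100 differences was not tested.

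S100a13, which assists the unconventional release of FGF1 and interleukin 1 alpha, read 7.53 with Ets2 and 7.75 without it in normal fibroblasts, and 7.55 and 8.25 in PyMT fibroblasts. It was higher on the Ets2-null array, 1.17-fold in normal and 1.62-fold in PyMT fibroblasts. The PyMT array was 1.02-fold higher with Ets2 and 1.41-fold higher without. The closest patterns were those of Myl12b, a myosin light chain, at 0.017, Ddah2 at 0.021 and Idua at 0.021, with 99 genes within 0.1.

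S100a16, a widely expressed member with an unusual first EF-hand, had both PyMT levels above both normal levels. For S100a4, S100a10 and S100g both PyMT levels were below both normal levels. The share of all kept genes with either order was not counted. S100a16 read 7.46 with Ets2 and 7.15 without it in normal fibroblasts, and 8.16 and 7.89 in PyMT fibroblasts. The PyMT array was 1.62-fold higher with Ets2 and 1.67-fold higher without, short of 2-fold, and the Ets2-null array was 1.24-fold and 1.21-fold lower. PyMT differences at least as wide as those of S100a16 were held by 21.2% of kept genes with Ets2 and 32.1% without. Its closest genes were Cnn1, a smooth muscle calponin counted here among the myofibroblast markers, at 0.038, Tmem47 at 0.041 and Dll1, a Notch ligand, at 0.043. Cnn1 read 8.76, 8.53, 9.46 and 9.18 over the same arrays. There were 58 kept genes within 0.1 of S100a16, so its pattern was a common one. The other myofibroblast markers were mixed. On the PyMT array with Ets2, Acta2 and Tagln were higher by 0.22 and 0.42, and Myl9 and Des were lower at -0.12 and -0.08.

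The other 6 S100 genes with a probe set of their own were mostly near the bottom of the scale, and 2 of them, S100a1 and S100b, were kept. S100a8 and S100a9, the subunits of calprotectin in neutrophils, had no level above 4.23. S100a14 had none above 3.42. The probe sets of each kept gene did not give 1 answer. S100a1, a heart and muscle protein, read 5.57, 6.46, 6.46 and 5.54 by one probe set and 4.18, 4.22, 4.32 and 4.99 by the other, again normal before PyMT and Ets2-present before Ets2-null. S100b, a glial protein, read 3.03, 3.30, 2.87 and 5.28 by one and 2.63, 2.84, 2.73 and 2.94 by the other. The S100b level of 5.28 stood on the PyMT Ets2-null array, whose 25th percentile over all probe sets was 3.66, beside 3.43 to 3.47 on the other arrays.

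Among 26 listed partners and targets of S100 proteins, 21 were on the array and 16 were kept. By the brightest probe set of each gene, 0 were 2-fold apart between the Ets2 groups in normal fibroblasts. In PyMT fibroblasts Trpv6, which passed the filter only through the PyMT Ets2-null array, was higher without Ets2 by 1.32. Mmp9, a gelatinase, was lower there at -4.14. The PyMT array with Ets2 had 1 higher, Mmp9 by 1.48, and 0 lower, and without Ets2 it had Trpv6 higher by 1.32 and Mmp9 lower at -2.37. The shares of all kept genes that were higher and lower were 3.02% and 2.41% for Ets2 in normal and 7.64% and 7.77% in PyMT fibroblasts, and 5.42% and 6.20% for PyMT with Ets2 and 9.69% and 11.2% without. The second Mmp9 probe set differed less, at -1.02 for Ets2 in PyMT fibroblasts and 0.62 and -0.64 for PyMT with and without Ets2. A dimmer Mdm2 probe set was lower without Ets2 in normal fibroblasts, at -2.265, and higher by 1.86 for PyMT without Ets2. Dimmer Myh9 probe sets were lower without Ets2 in PyMT fibroblasts, at -1.14 and -1.03. The partner medians were -0.11 and -0.06 for Ets2 in normal and PyMT fibroblasts, and 0.13 and 0.14 for PyMT with and without Ets2.

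Among 28 other EF-hand calcium-binding genes, 23 were on the array and 20 were kept. By the brightest probe set of each gene, 0 were 2-fold apart between the Ets2 groups in normal fibroblasts. In PyMT fibroblasts Calml4, a calmodulin-like gene, was higher without Ets2 by 2.08 and Actn4, an actin crosslinker, was lower at -1.18. The PyMT array with Ets2 had 0 higher and 1 lower, Calml4 at -1.41, and without Ets2 it had 2 higher, Calml4 by 1.59 and Myl6 by 1.02, and 0 lower. Over all kept genes the shares higher and lower were the same as beside the partners, from 2.41% to 11.2%. The medians of the list were -0.08 and 0.12 for Ets2 and 0.12 and 0.27 for PyMT. Dimmer Actn1 probe sets were lower without Ets2 in PyMT fibroblasts, at -1.17 and -1.79. A dimmer Capn1 probe set was higher on the PyMT arrays, by 1.53 with Ets2 and 1.49 without. The widest of these differences, that of Calml4, was 2.08, beside 4.26 and 4.71 for S100a3 and -5.90 and -5.13 for S100g.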

How the data were processed

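Expression was measured on 4 Affymetrix mouse genome arrays, 1 per group, with groups taken from the sample labels. The deposited values are log2 levels, produced by the authors with RMA of an unstated version, for 22690 probe sets including 64 controls. Detection calls were not used here, and the number of arrays limits the precision. The platform table gave 1 symbol to 20393 probe sets, several to 691 and none to 1606. A gene's values are those of its probe set with the highest mean, and it was kept if its highest level reached 4.63, the 40th percentile.

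Differences were taken between 2 arrays, with no test, since no group has a replicate. The members and lists were chosen with earlier results of these data known. Named are all S100 genes, Ets2, Anxa2, Ahnak, listed genes 2-fold apart, the closest patterns and the chromosomal neighbours, and, picked after their values were seen, markers that moved with a member. RefSeq order on GRCm38.p6 served for neighbours, since the build of the array design is not given in the sources used here. The code was tested on simulated data. Python 3.11.15, pandas 2.3.3, numpy 2.4.6 and matplotlib 3.10.9 were used, with limma 3.58.1 in R 4.3.3 for 2 alternative normalizations. Other alternatives changed the filter, the scaling, the probe set rule and the fold.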

Additional observations from a re-analysis of the deposited data

Results flagged for a closer look

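With 1 array per group, a difference between conditions that ran in opposite directions in the 2 arms is 1 value against 1 value, and it was not tested. The Ets2 difference of S100g was -0.25 in normal and 0.53 in PyMT fibroblasts, 0.776 apart, with both PyMT levels under the filter level. The PyMT difference of S100a6 was 0.12 with Ets2 and -0.04 without, -0.157 apart. S100a1 was higher by 0.90 without Ets2 in normal and lower at -0.92 in PyMT fibroblasts, -1.82 apart, and its PyMT difference of 0.89 with Ets2 and -0.93 without was by construction also -1.82 apart. Its second probe set differed by 0.04 and 0.67 for Ets2. S100b was lower in PyMT at -0.16 with Ets2 and higher by 1.97 without, 2.14 apart, and its second probe set differed by 0.10 in each.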

How the results depend on the processing

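Over 7 alternatives in the filter, scaling and probe set rule, the 5 member differences of at least 2-fold kept their sign and stayed at least 2-fold in all 35 values, and of all 196 member differences 189 kept their sign. The other 7 were small differences or were set to 0 by the raised filter level. Removing or tightening the filter cannot change the value of a kept member. The mean over probe sets can change only that of S100a10, the member with 2 probe sets. Part of the values counted above were thus the same by construction. With low levels raised to the filter level, the S100a3 difference became 2.77 in normal and 3.26 in PyMT fibroblasts, and that of S100g became -2.91 with Ets2 and -2.67 without. This follows from the setting, since it replaces the levels under 4.63. With 1.5-fold as the threshold, 1 member was apart for Ets2 in normal and 3 in PyMT fibroblasts, beside 15.7% and 33.3% of kept genes, and 3 and 2 for PyMT with and without Ets2, beside 27.0% and 42.2%. With 4-fold, 1 member was apart in each comparison, beside 0.368%, 1.63%, 1.96% and 3.50% of kept genes. Subtracting array medians moved the median of kept genes from 0.02 to 0.13 for Ets2 in PyMT fibroblasts. No paired analysis was possible because each group has 1 array. Signal near background limits S100a3 in Ets2-present and S100g in PyMT fibroblasts, and no value here has a replicate array. The paper also lists S100a3 as higher without Ets2 in normal fibroblasts of older mice, on arrays not used here.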
